A study of Homo sapiens with 32 samples.

Results

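The passage from flat culture to young spheroid was examined in EPC2 cells, human esophageal keratinocytes that carry the telomerase gene hTERT as an immortalised line, here labelled wild type and untreated. All libraries labelled as monolayer (day 0) and all libraries labelled as day 3 spheroid (D3) were taken, 10 and 9 of them, which is 19 of the 32 libraries of the series. The comparison ran over all genes, with the experiment a library came from as a covariate. Of 19345 gene symbols, 11998 reached 1 TPM (a length-corrected share of the library's transcripts, scaled to sum to 1000000) in at least 4 of the 19 libraries and were tested, and 7347 did not. Monolayer RNA was taken at day 0, before seeding, and the medium of the monolayers is not described in the labels. For the spheroids, 40000 cells were placed in a 20 µl drop of undiluted Matrigel, a basement membrane extract, covered with the keratinocyte medium KSFM, to which 0.6 mM CaCl2 and 10 uM Y27632, a kinase inhibitor, were added. They were recovered from the Matrigel in the cold before RNA was taken at day 3, and cells that had attached to the plastic were left behind. Growth in 3D, the matrix, the added calcium, the inhibitor and the recovery step differ together between the groups and cannot be told apart. The libraries come from 2 independent experiments, called batches: batch 1 held 5 monolayers and 4 D3 libraries, and batch 2 held 5 and 5. The labels do not say whether libraries of 1 experiment were separate cultures, so p-values measure the spread between these libraries, which may be technical, in 1 cell line.

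Basal keratinocytes of a stratified squamous epithelium hold to the basement membrane through integrins and laminin, divide, and pull on the matrix with actin and myosin. Cells that move up leave the basement membrane, stop dividing, change their keratins and make the proteins, protease inhibitors and lipids of the barrier, under transcription factors such as those of the CEBP and GRHL families. Spread cells on plastic are known for active SRF, YAP and AP-1 transcription and for secreting growth factors and cytokines, as cells at a wound edge do.

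The libraries fell into 2 separate groups. The first principal component held 70.0% of the variance of log2(TPM + 1) and separated all monolayers from all D3 libraries, and the second held 16.9% and separated the monolayers by batch. The D3 libraries split less cleanly: library 4 of batch 1 lay near batch 2, and library 7 of batch 2 lay near batch 1. This matters for single genes, because libraries 2, 7 and 8, and to a lesser degree 9, were set apart from libraries 1, 3, 4, 5 and 6. The cornified envelope gene SPRR1A stood at 191 to 234 TPM in libraries 2, 7 and 8, at 560 TPM in library 9 and at 3931 to 4769 TPM in the other 5, while the proliferation gene MKI67 stood at 101 to 118, 77.5 and 48.7 to 58.1 TPM in the same libraries. Without libraries 4 and 7, all 150 single-gene results examined kept their direction and their side of the threshold. D3 libraries varied more than monolayers, with a median within-batch SD over genes of 0.170 against 0.0877 log2 units, and 0.143 in D3 without libraries 4 and 7. TPM carries no sequencing depth, so counting error is unknown and the spread between libraries is the only error given.

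What the cells' RNA was spent on changed in a few abundant classes, and this bears on every other value, since TPM are shares of a fixed total. Keratin transcripts took 2.74, 2.97 and 3.56% of all TPM in the monolayers (lowest, median and highest library, here and below) and 7.48, 11.8 and 12.7% in D3. Transcripts of cytosolic ribosomal proteins went from 2.43, 2.59 and 2.97% to 3.29, 4.29 and 4.92%. Those of heat shock and protein-folding genes went from 0.302, 0.534 and 0.801% to 0.835, 1.45 and 2.01%. This rise was that of 1 gene, HSPB1, from 0.112 to 1.15% (medians): the other 25 genes of the class, summed after its values were seen, held 0.181, 0.414 and 0.695% in the monolayers and 0.219, 0.282 and 0.328% in D3. All 3 classes were higher in every D3 library than in any monolayer. In the opposite direction, secreted matrix transcripts fell from 0.516, 0.673 and 0.840% to 0.0789, 0.0872 and 0.101%, and actomyosin transcripts from 1.11, 1.24 and 1.44% to 0.477, 0.592 and 0.670%. Each of these 5 differences, and that of the S100 genes (0.688 against 1.68%, medians), had an adjusted p of 2.5e-05 in an exact two-sided permutation test of the group means, at the smallest p that 10 against 9 libraries allow (2.2e-05 before adjustment over 8 classes). Within batches they kept their direction, with an exact adjusted p of 0.0181 in batch 1 and 0.00907 in batch 2 for each of the 6 classes, where the smallest unadjusted p possible are 0.0159 and 0.00794. The 13 mitochondrially encoded genes, the largest class, did not pass (48.5 against 45.8%, medians, exact permutation adjusted p = 0.95), and their difference of means was 5.31 percentage points in batch 1 and -4.29 in batch 2. Their share split the D3 libraries as described for SPRR1A. D3 libraries 2, 7, 8 and 9 held 53.1 to 57.1%, above every monolayer (44.8 to 50.1%). D3 libraries 1, 3, 4, 5 and 6 held 39.1 to 45.8%. All other genes together held 41.8, 43.2 and 45.4% in the monolayers and 28.6, 34.2 and 38.9% in D3.

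**Figure D1:**
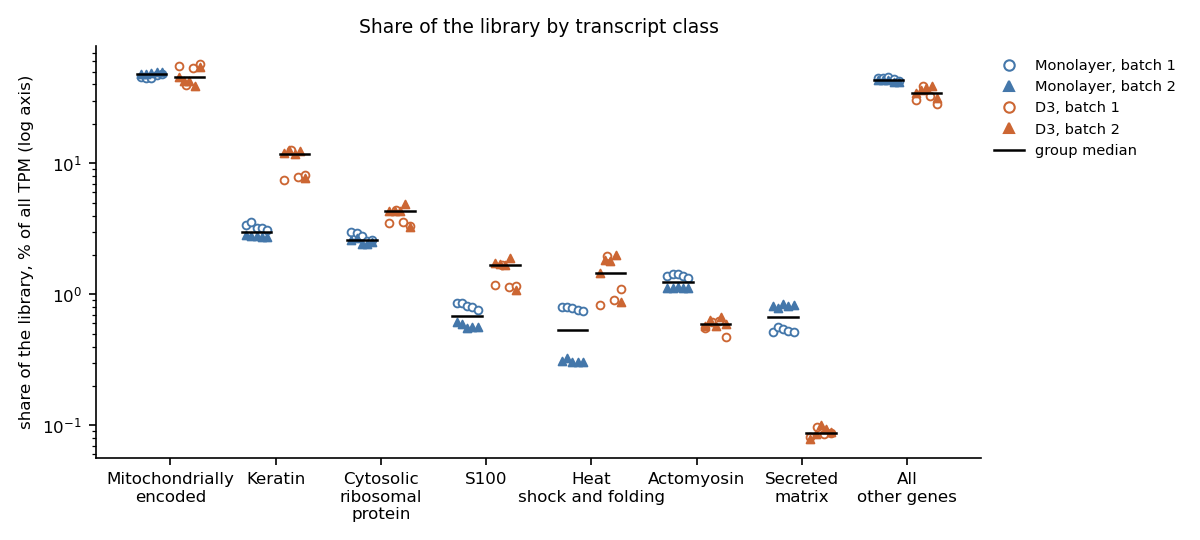
Share of each library's TPM taken by 7 transcript classes and by all other genes (y axis, percent, log scale). Points are libraries, by group and batch, and lines are group medians. Keratin, ribosomal, S100 and heat shock shares lie higher in all D3 libraries, and actomyosin, secreted matrix and the remaining genes lie lower.

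Most genes fell as deposited. Changes are given as the D3 minus monolayer difference of log2(TPM + 1) with its SE, fitted with batch in limma. The words rose and fell are used where the Benjamini-Hochberg adjusted p over all genes tested was below 0.05. The scale understates the change of genes with low values. As deposited, 1454 of 11998 genes rose (12.1%) and 8591 fell (71.6%), with a median change of -0.46. Dividing each library by its median-of-ratios factor, which sets the typical gene level between libraries, gave 4032 genes higher (33.6%) and 4240 lower (35.3%), with a median of -0.02. The factors were 1.13 to 1.29 in the monolayers and 0.755 to 0.874 in D3. Counts over gene lists below are to be read beside the shares of all genes. These were 12.1% higher and 71.6% lower as deposited, and 33.6 and 35.3% after rescaling. All 1454 genes that rose as deposited were also higher after rescaling, and all 4240 genes lower after rescaling also fell as deposited. The direction of 1077 genes (8.98%) depended on the scaling: they were called lower as deposited and higher after rescaling. The libraries alone cannot say whether a cell held less of such a transcript, and in bulk samples fewer cells of a type and less RNA per cell cannot be told apart. Counting only genes with the same call under both scalings, pooled and in each batch alone, 893 were higher (7.44%) and 2388 lower (19.9%) in D3. These are called concordant genes below. Among them, 394 were at least 2-fold higher and 525 at least 2-fold lower under both scalings. Without D3 libraries 4 and 7, 1474 genes rose and 8670 fell as deposited.

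**Figure D2:**
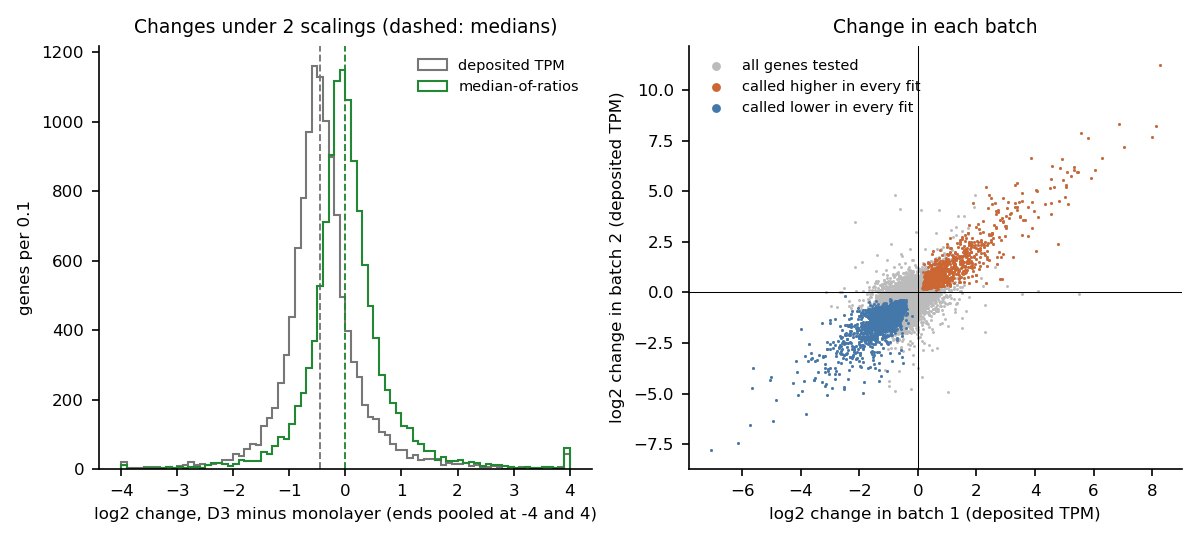
Left, number of genes (y axis) by log2 change D3 minus monolayer (x axis) as deposited and after median-of-ratios rescaling, with dashed lines at the medians of -0.46 and -0.02. Right, the change in batch 1 (x axis) against batch 2 (y axis) for all genes tested, with the 893 genes called higher and the 2388 called lower under both scalings, pooled and in each batch, in colour.

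Receptors for the matrix fell. Of 10 tested integrin genes, 9 fell and 1 rose, under both scalings and in each batch, and the groups did not overlap for any of them. Beside this, all D3 libraries lay below all monolayers for 40.2% of the genes tested and above them for 5.15%. The median change over the integrins was -1.49, against -0.46 over all genes. ITGA5, the fibronectin-binding alpha-5 subunit, was measured at 127.4, 148.65 and 165.0 TPM in the monolayers and 24.6, 26.9 and 32.8 TPM in D3. It fell in both batches (-2.31 in batch 1 and -2.45 in batch 2, pooled -2.38 ± 0.06, limma adjusted p = 3.5e-17), with no D3 library near the lowest monolayer. ITGA2, the alpha-2 subunit of the collagen receptor, had 25.6, 27.45 and 29.4 TPM in the monolayers and 4.8, 5.7 and 6.6 TPM in D3 (-2.11 ± 0.05). ITGAV, the subunit shared by several RGD receptors, fell as well (-1.97 ± 0.11). ITGB8 was the exception: this partner of alpha-V, known for activating latent TGF-beta, had 2.6, 3.75 and 4.6 TPM in the monolayers and 5.0, 5.4 and 6.8 TPM in D3 (0.54 ± 0.06, limma adjusted p = 1.0e-07). Its rise was small, but no D3 library was as low as the highest monolayer.

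Of 9 tested genes of epithelial laminin and of the hemidesmosome, which anchor cells to the basement membrane, 7 fell and 1 rose as deposited, a share near the 71.6% of all genes that fell, and 5 fell and 2 rose after rescaling. LAMA3, a laminin chain, had 65.4, 85.9 and 110.5 TPM in the monolayers and 13.1, 13.9 and 16.5 TPM in D3 (-2.52 ± 0.09, limma adjusted p = 4.5e-15). No D3 library came near the lowest monolayer. DST, whose epithelial product is a plaque protein of the hemidesmosome, rose instead (0.71 ± 0.11), with 18.6, 26.3 and 37.7 TPM in the monolayers and 33.2, 45.9 and 54.3 TPM in D3 and some overlap. Of 29 secreted matrix genes, 23 fell and 2 rose as deposited, and 18 fell and 5 rose after rescaling. The largest fall beside fibronectin was that of CCN2, a matricellular protein and a known YAP target, with 112.6, 178.3 and 248.5 TPM in the monolayers and 0.8, 1.6 and 1.8 TPM in D3 (-6.18 ± 0.11). The 2 that rose were COL18A1, a basement membrane collagen (0.77 ± 0.05), and COL1A1, a fibrillar collagen chain (1.45 ± 0.21, 3.3, 5.9 and 9.5 TPM in the monolayers and 8.0, 23.9 and 30.3 TPM in D3).

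Genes of enzymes that open the matrix and of their inhibitors mostly fell. Of 20 matrix protease and plasminogen-system genes, inhibitors among them, 16 fell and 3 rose as deposited, and 15 fell and 4 rose after rescaling. The shares of all genes that fell were 71.6 and 35.3%. PLAU, the urokinase plasminogen activator, had 560.1, 925.05 and 1262 TPM in the monolayers and 72.2, 80.9 and 136.7 TPM in D3 (-3.30 ± 0.14, limma adjusted p = 9.4e-14). SERPINE2, a secreted inhibitor of urokinase and thrombin, fell as well (-2.86 ± 0.11), from 52.3, 57.6 and 61.5 TPM to 4.7, 6.7 and 10.5 TPM. The fall of MMP9, a gelatinase, was larger in batch 2 (-1.34 in batch 1 and -4.38 in batch 2), and its 2 groups overlapped at 1.7, 21.15 and 42.7 TPM in the monolayers and 0.1, 0.9 and 1.8 TPM in D3. MMP3 rose from 0.1, 0.25 and 0.8 TPM to 0.5, 1.7 and 2.6 TPM and TIMP3, a matrix-bound inhibitor of metalloproteinases, from 0.4, 0.6 and 0.7 TPM to 0.4, 1.9 and 2.3 TPM, both at low levels and with overlap, and TIMP3 did not pass in batch 1 alone (0.41, limma adjusted p = 0.0586). MMP28, a metalloproteinase of keratinocytes, was listed at 0 in all monolayers and in D3 libraries 2, 7 and 8, and at 5.5 to 17.0 TPM in the other 6.

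**Figure D3:**
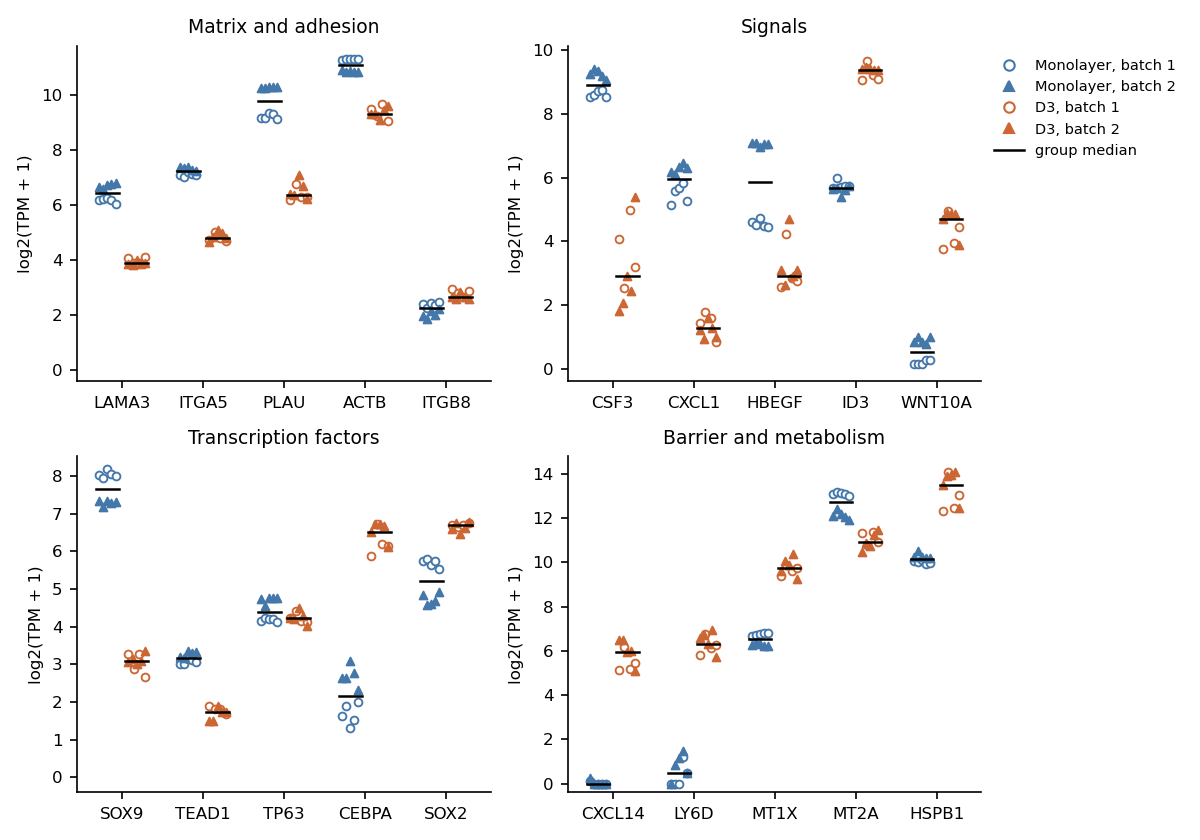
log2(TPM + 1) (y axis) of 20 genes in each library, by group and batch, with group medians as lines. LAMA3, ITGA5, PLAU, ACTB, CSF3, CXCL1, SOX9, TEAD1 and MT2A lie lower in all D3 libraries. ITGB8, ID3, WNT10A, CEBPA, SOX2, CXCL14, LY6D, MT1X and HSPB1 lie higher in all of them. HBEGF lies mostly lower in D3 with some overlap, and the TP63 groups overlap.

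The contractile machinery fell almost as a whole. Of 29 actomyosin and focal adhesion genes, 28 fell as deposited, with a median change of -1.23, and 24 fell and 4 rose after rescaling. MYL9, a myosin regulatory light chain, had 12.2, 17.55 and 20.3 TPM in the monolayers and 0.7, 1.5 and 2.2 TPM in D3 (-2.90 ± 0.10, limma adjusted p = 3.3e-15). ACTN1, the actin crosslinker of focal adhesions, had 65.1, 73.0 and 84.2 TPM in the monolayers and 8.7, 11.1 and 18.8 TPM in D3 (-2.47 ± 0.11). Even ACTB, the beta-actin gene often used as a constant reference, went from 1816, 2207 and 2556 TPM to 536.8, 632.3 and 816.5 TPM, a change of -1.71 ± 0.09 as deposited and of -1.16 after rescaling. All 3 had no overlap between groups. LIMA1, a stabiliser of actin filaments, fell by a similar amount (-1.84 ± 0.07). A few abundant members moved so little that the scaling set their direction: MYL12B changed by -0.29 ± 0.06 as deposited and 0.26 after rescaling, and TAGLN2, an actin-bundling protein, by -0.27 ± 0.10 and 0.28, and TAGLN2 did not pass in batch 2 alone (limma adjusted p = 0.954). GAPDH, the other customary reference gene, changed by 0.33 ± 0.13 as deposited, with -0.14 in batch 1 and 0.74 in batch 2, and it did not pass without D3 library 6 (limma adjusted p = 0.0522).

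Several regulators of the actin cytoskeleton changed as well. ARHGAP29, a GTPase-activating protein, had 12.8, 15.35 and 16.8 TPM in the monolayers and 1.7, 2.0 and 2.6 TPM in D3 (-2.37 ± 0.05, limma adjusted p = 2.4e-18), with nearly the same change in each batch (-2.42 in batch 1 and -2.32 in batch 2). ARHGEF2, an exchange factor released from microtubules, fell further in batch 2 (-1.0 in batch 1 and -2.53 in batch 2). Of the kinases that the inhibitor acts on, ROCK1 changed by -0.74 ± 0.06 and ROCK2 by -0.67 ± 0.05, and after rescaling by -0.27 and -0.22. SRF, the transcription factor that reads the actin pool, changed by -0.80 ± 0.07, with 72.4, 76.75 and 88.5 TPM in the monolayers and 36.0, 45.5 and 51.6 TPM in D3. RHOA, a small GTPase, changed by -0.19 ± 0.07 as deposited and by 0.35 after rescaling, so its direction was set by the scaling. PPP1R12B, a myosin phosphatase subunit, rose in the pooled fit (0.24 ± 0.06) but did not pass in batch 1 alone (0.12, limma adjusted p = 0.201). RHOV, an atypical GTPase, had 0, 0.65 and 1.6 TPM in the monolayers and 47.6, 105.9 and 152.8 TPM in D3 (5.71 ± 0.23, limma adjusted p = 5.3e-14), with no overlap.

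Transcripts of the EGF receptor system were mostly lower. Among 12 tested ligands and receptors, 10 fell and 2 rose as deposited, and 8 fell and 2 rose after rescaling. Of all genes tested, 71.6% fell as deposited and 35.3% after rescaling. The ligand HBEGF had 21.1, 75.45 and 136.6 TPM in the monolayers and 4.9, 6.6 and 25.2 TPM in D3 (-2.68 ± 0.35), and its monolayers differed by batch (21.1 to 25.7 TPM in batch 1 and 125.2 to 136.6 TPM in batch 2), with a change of -1.46 in batch 1 and -3.76 in batch 2. TGFA, another ligand, had 17.1, 21.55 and 27.1 TPM in the monolayers and 3.6, 4.4 and 6.2 TPM in D3 (-2.03 ± 0.08, limma adjusted p = 2.3e-14). EREG fell by 1.83 ± 0.21 and the receptor EGFR itself changed by -1.12 ± 0.10, from 37.6, 48.75 and 65.3 TPM to 19.2, 22.4 and 27.5 TPM. ERBB3, a receptor of the same family that lacks strong kinase activity, rose in every D3 library above every monolayer, from 1.8, 2.35 and 3.0 TPM to 5.9, 6.9 and 7.8 TPM (1.18 ± 0.07). The ligand EPGN rose too (0.68 ± 0.11), with overlap. Genes known as feedback regulators and targets of the kinase ERK fell: of 16 tested, 15 fell, the median change was -1.94, and 13 were concordant genes. PHLDA1 had 845.4, 1671 and 2587 TPM in the monolayers and 115.8, 159.5 and 474.2 TPM in D3 (-3.00 ± 0.26). FOSL1, the AP-1 subunit FRA1 that ERK stabilises, had 298.6, 315.1 and 353.0 TPM in the monolayers and 25.4, 40.7 and 57.1 TPM in D3 (-2.96 ± 0.11, limma adjusted p = 7.4e-15). IER3 changed by -2.79 ± 0.13. SPHK1, the kinase that makes sphingosine 1-phosphate, is not among these 16 genes. It went from 88.8, 108.0 and 117.5 TPM to 4.3, 5.0 and 9.1 TPM (-4.02 ± 0.10). No D3 library reached the lowest monolayer in any of these 4 genes.

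AP-1 and immediate early genes changed in both directions. Of 20 tested, 3 rose and 11 fell as deposited, and 5 rose and 8 fell after rescaling. Of all genes tested, 12.1% rose and 71.6% fell as deposited, and 33.6% rose and 35.3% fell after rescaling. In batch 1 alone 8 of these 20 genes were higher and 8 lower, and in batch 2 alone 3 were higher and 16 lower. The growth regulator MYC rose (0.90 ± 0.10, limma adjusted p = 5.4e-08), with 166.7, 192.0 and 214.1 TPM in the monolayers and 259.7, 360.6 and 509.3 TPM in D3 and no overlap. BTG2, an antiproliferative gene, had 48.1, 69.65 and 96.0 TPM in the monolayers and 190.0, 256.8 and 309.1 TPM in D3 (1.81 ± 0.12), and FOSL2, another FOS family member, rose by 0.72 ± 0.11.

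The TGF-beta family changed in its ligands and antagonists and, in the other direction, in the ID genes, which BMP signals induce and which block bHLH transcription factors. Of 20 tested genes, 17 fell and 3 rose as deposited, and 12 fell and 4 rose after rescaling. The shares of all genes that fell were 71.6 and 35.3%. The 3 that rose as deposited were the ID genes. ID3 had 40.7, 50.7 and 62.3 TPM in the monolayers and 540.8, 671.0 and 818.1 TPM in D3 (3.66 ± 0.08, limma adjusted p = 9.2e-18). ID1 had 103.1, 125.45 and 146.5 TPM in the monolayers and 356.4, 505.3 and 997.1 TPM in D3 (2.13 ± 0.16), and ID2 rose at a lower level (2.39 ± 0.14, 0.5, 0.75 and 2.2 TPM in the monolayers and 7.1, 9.1 and 12.2 TPM in D3). Each had separate groups, and the batch interaction did not pass for ID1 (2.14 in batch 1 and 2.12 in batch 2) or ID3 (3.50 in batch 1 and 3.80 in batch 2). INHBA, which encodes the activin A subunit, had 70.5, 140.1 and 222.5 TPM in the monolayers and 12.3, 13.7 and 18.3 TPM in D3 (-3.14 ± 0.18). FST, follistatin, the secreted protein that binds activin, fell further, from 675.9, 937.5 and 1271 TPM to 13.6, 26.2 and 34.4 TPM (-5.17 ± 0.16). SKIL, a negative feedback regulator of SMAD signals, changed by -2.31 ± 0.14.

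Insulin-like growth factor binding proteins went both ways. Of 10 tested genes, 4 rose and 5 fell, with the same counts after rescaling, and 9 had separate groups. All D3 libraries lay above all monolayers for 4 of them and below for 5, against 5.15 and 40.2% of all genes tested. IGFBP6 rose from 19.6, 28.0 and 43.3 TPM to 72.1, 97.3 and 145.3 TPM (1.82 ± 0.11), and IGFBP2 was at 0, 0 and 0.1 TPM in the monolayers and 1.1, 4.3 and 6.6 TPM in D3. IGFBP4 fell from 9.8, 11.35 and 13.4 TPM to 0.6, 1.1 and 1.7 TPM (-2.54 ± 0.09, limma adjusted p = 3.9e-15) and IGFBP7 changed by -1.48 ± 0.10. Of 24 Wnt genes tested, 18 fell and 4 rose as deposited, near the shares of all genes (71.6 and 12.1%), and 13 fell and 7 rose after rescaling. DKK1, a secreted Wnt inhibitor, had 70.8, 244.9 and 439.8 TPM in the monolayers and 1.9, 4.0 and 21.7 TPM in D3 (-4.63 ± 0.38), and the ligand WNT7A fell with a far smaller spread (-2.55 ± 0.06), from 15.3, 17.85 and 19 TPM to 1.6, 2.2 and 2.5 TPM. The receptor FZD8 changed by -2.08 ± 0.12. WNT10A, a ligand of squamous epithelia, had 0.1, 0.45 and 1.0 TPM in the monolayers and 12.6, 25.2 and 30.3 TPM in D3 (3.91 ± 0.14, limma adjusted p = 1.1e-14), and WNT4 rose to a D3 median of 7.6 TPM (2.33 ± 0.24). SFRP1, a Wnt-binding protein, rose in the pooled fit (0.63 ± 0.14), but its change was -0.0021 in batch 1 and 1.19 in batch 2.

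Genes of the NF-kappa B pathway mostly fell. Of 20 tested NF-kappa B feedback and target genes, 17 fell and 1 rose as deposited, and 15 fell and 1 rose after rescaling. Over all genes tested, 71.6% fell as deposited and 35.3% after rescaling. For 11 of the 20 all D3 libraries lay below all monolayers, as they did for 40.2% of all genes tested. Among the largest falls were cytokines outside the list, not counted as a group. CSF3, granulocyte colony-stimulating factor, had 368.5, 484.75 and 679.5 TPM in the monolayers and 2.5, 6.5 and 41.1 TPM in D3 (-5.68 ± 0.40, limma adjusted p = 1.4e-10). TNF, which both induces and is induced by NF-kappa B, had 42.7, 139.4 and 260.4 TPM in the monolayers and 0.7, 2.0 and 10.1 TPM in D3 (-5.0 ± 0.38). CSF2 was at 6.4, 20.65 and 39.8 TPM in the monolayers and 0, 0 and 0.3 TPM in D3. The adhesion molecule ICAM1 changed by -3.61 ± 0.19 and the feedback deubiquitinase TNFAIP3 by -3.46 ± 0.27, from 73.9, 189.35 and 295.7 TPM to 6.5, 15.5 and 32.1 TPM. NFKB2, a subunit gene that is itself a target, changed by -1.97 ± 0.17. All 6 of these genes had higher levels in every monolayer than in any D3 library. SOD2, a mitochondrial dismutase and NF-kappa B target, was the 1 on the list that rose (0.36 ± 0.11), with overlap.

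The neutrophil chemokine CXCL1 was among the largest falls (34.2, 62.1 and 88.0 TPM in the monolayers and 0.8, 1.4 and 2.4 TPM in D3, -4.62 ± 0.16). Its neighbours CXCL2 and CXCL3, taken after their values were seen, are near copies whose reads may be shared, so their separate values are uncertain. CXCL2 had 10.2, 72.0 and 147.1 TPM in the monolayers and 0.8, 3.3 and 5.3 TPM in D3 (-3.51 ± 0.40) and CXCL3 had 6.4, 26.35 and 49.9 TPM in the monolayers and 0.2, 0.9 and 1.3 TPM in D3 (-3.65 ± 0.28), and both fell more in batch 2 (-1.88 in batch 1 and -4.97 in batch 2 for CXCL2). The stretches before their RefSeq start sites (GRCh38.p14, 5′ to 3′ in the direction of the gene) are shown because the 3 genes moved together and each holds the NF-kappa B motif GGGANTTTCC, in capitals, at nearly the same place. They lie at chr4:73869293-73869392 (CXCL1, plus strand), chr4:74099196-74099295 (CXCL2, minus strand), chr4:74038690-74038789 (CXCL3, minus strand) and chr6:137867159-137867258 (TNFAIP3, plus strand).
CXCL1: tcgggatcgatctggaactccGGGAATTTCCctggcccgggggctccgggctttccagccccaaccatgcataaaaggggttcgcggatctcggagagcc
CXCL2: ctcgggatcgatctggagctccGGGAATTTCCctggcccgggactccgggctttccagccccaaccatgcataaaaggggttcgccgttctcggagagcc
CXCL3: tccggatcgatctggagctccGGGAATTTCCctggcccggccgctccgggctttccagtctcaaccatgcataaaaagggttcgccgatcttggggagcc
TNFAIP3: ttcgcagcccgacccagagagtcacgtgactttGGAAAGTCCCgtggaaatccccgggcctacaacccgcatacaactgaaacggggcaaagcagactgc
The motif starts 79 bases before the start site in CXCL1 and CXCL3, 78 before it in CXCL2 and 67 before it in TNFAIP3, where it lies on the other strand. Searched on both strands in the 250 bases before the start of 9388 tested genes, it was found in 0.586% of promoters, in 1.31% of those of concordant genes at least 2-fold lower and in 0.727% of those at least 2-fold higher, which are 5 and 2 promoters. A match is a description of the sequence and no evidence of binding.

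Among the largest rises were 4 genes for secreted or surface proteins, all at or near 0 in the monolayers. CXCL14, a chemokine made by healthy squamous epithelium, had 0, 0 and 0.2 TPM in the monolayers and 32.9, 60.4 and 90.0 TPM in D3 (5.72 ± 0.17, limma adjusted p = 4.0e-16). LY6D, a lipid-anchored surface protein of stratified epithelium, had 0, 0.4 and 1.8 TPM in the monolayers and 51.0, 77.1 and 122.8 TPM in D3 (5.77 ± 0.21). SLPI, a secreted inhibitor of leukocyte proteases, had 0, 0.6 and 2.3 TPM in the monolayers and 25.1, 225.1 and 286.9 TPM in D3 (6.06 ± 0.40), and C10orf99, a secreted peptide gene, had 0, 0 and 0.1 TPM in the monolayers and 9.8, 104.4 and 125.8 TPM in D3 (5.55 ± 0.46). All 4 were separate between groups. SLPI and C10orf99 were at 25.1 to 62.5 and 9.8 to 33.4 TPM in D3 libraries 2, 7, 8 and 9 and at 225 to 287 and 104 to 126 TPM in the other 5, the split described for SPRR1A. LY6D and CXCL14 split the same way within a narrower range. They were at 51.0 to 75.7 and 32.9 to 42.9 TPM in D3 libraries 2, 7, 8 and 9. In the other 5 they were at 77.1 to 122.8 and 60.4 to 90.0 TPM.

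The small proline-rich proteins SPRR1A, SPRR1B and SPRR3, which are crosslinked into the cornified envelope, were among the largest rises. SPRR1A had 0, 0 and 5.3 TPM in the monolayers and 190.7, 3931 and 4769 TPM in D3, SPRR1B 4.2, 10.05 and 17.1 TPM in the monolayers and 341.0, 3313 and 3813 TPM in D3 and SPRR3 0, 0 and 0.7 TPM in the monolayers and 18.2, 261.3 and 431.9 TPM in D3, and all were separate between groups. Their promoter stretches are shown with that of CCN2, which went the other way, because all hold the TEAD motif GGAATG, and the SPRR stretches also hold the AP-1 motif TGANTCA; capitals mark these and TATAAA. They lie at chr1:152983931-152984080, chr1:153031053-153031202 and chr1:153001569-153001748 on the plus strand and at chr6:131951373-131951552 on the minus strand (RefSeq, GRCh38.p14).
SPRR1A: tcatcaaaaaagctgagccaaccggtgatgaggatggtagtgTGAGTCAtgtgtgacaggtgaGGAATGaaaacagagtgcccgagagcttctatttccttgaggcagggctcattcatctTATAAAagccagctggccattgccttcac
SPRR1B: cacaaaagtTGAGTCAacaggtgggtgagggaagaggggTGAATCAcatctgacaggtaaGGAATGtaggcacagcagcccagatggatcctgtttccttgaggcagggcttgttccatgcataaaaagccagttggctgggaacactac
SPRR3: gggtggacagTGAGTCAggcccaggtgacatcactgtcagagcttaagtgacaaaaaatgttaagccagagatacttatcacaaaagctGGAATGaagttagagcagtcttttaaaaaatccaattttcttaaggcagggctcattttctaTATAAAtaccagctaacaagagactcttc
CCN2: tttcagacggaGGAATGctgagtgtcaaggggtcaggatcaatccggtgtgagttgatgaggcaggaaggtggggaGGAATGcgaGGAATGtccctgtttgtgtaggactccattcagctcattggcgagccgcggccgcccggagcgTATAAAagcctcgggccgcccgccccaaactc
In the SPRR stretches the TEAD motif begins 87, 90 and 91 bases before the start site, and the nearest AP-1 motif 108, 111 and 170 bases before it. CCN2 holds 3 TEAD motifs, at 169, 104 and 95 bases, and no AP-1 motif in the printed stretch. Over all 9388 promoters of 250 bases, searched on both strands, 4.22% held TGANTCA, against 13.1% of 275 concordant genes at least 2-fold higher and 7.57% of 383 at least 2-fold lower. The TEAD motif was found in 9.58, 12.0 and 10.2% of the same promoters, in the same order. TATAAA, searched on the strand of the gene, was found in 4.01, 14.9 and 8.62%, and the CArG box of SRF in 1.03, 2.18 and 2.09%. The AP-1 and TATA shares were thus higher in both changed sets than in all promoters, and highest among the genes that rose, which describes these sequences and says nothing of the factors.

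Transcription factors of squamous differentiation rose. Of 18 tested, 14 rose and 2 fell as deposited, 16 rose and 1 fell after rescaling, and 11 of those that rose were concordant genes, against 7.44% of all genes. CEBPA, which slows division and drives differentiation, had 1.5, 3.5 and 7.5 TPM in the monolayers and 57.7, 90.1 and 105.8 TPM in D3 (4.19 ± 0.15, limma adjusted p = 4.5e-15). ZNF750, a target of p63 needed for the late genes, was listed at 0 in all monolayers and had 4.1, 22.0 and 32.2 TPM in D3. EHF, an epithelial ETS factor, was the member with the largest fall (-1.09 ± 0.10), from 63.3, 78.9 and 98.2 TPM to 29.8, 36.7 and 51.5 TPM. NOTCH3, a receptor of the pathway that commits basal cells to differentiate, was likewise listed at 0 in all monolayers, with 21.1, 40.9 and 54.3 TPM in D3.

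Factors of basal and foregut identity split. Of 16 tested, 5 rose and 9 fell as deposited, and 9 rose and 5 fell after rescaling. SOX9, a factor of progenitor and wound-responding epithelium, had 144.7, 203.95 and 288.5 TPM in the monolayers and 5.4, 7.5 and 9.3 TPM in D3 (-4.56 ± 0.12, limma adjusted p = 1.3e-16), and SOX4 changed by -1.63 ± 0.10. TEAD1, the DNA-binding partner of YAP, had 7.0, 7.95 and 9.3 TPM in the monolayers and 1.8, 2.3 and 2.7 TPM in D3 (-1.45 ± 0.07). SOX2, the esophageal identity factor, rose from 23.0, 37.3 and 54.9 TPM to 86.4, 102.7 and 108.1 TPM (1.49 ± 0.12), and TP73, a relative of p63, from 0.4, 0.5 and 0.6 TPM to 2.8, 3.5 and 4.1 TPM (1.58 ± 0.06). In SOX9, SOX2, TEAD1 and TP73 the groups were separate. TP63, which defines the stratified lineage, changed by -0.22 ± 0.08 as deposited and 0.30 after rescaling, with 0.05 in batch 1 and -0.46 in batch 2, and its groups overlapped, so no direction holds for it.

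Keratins, the intermediate filaments of epithelia, rose in 16 and fell in 5 of 25 tested genes, with 17 and 5 after rescaling. The basal pair held the largest keratin shares: KRT5 had 12359.6, 13451 and 16429 TPM in the monolayers and 30269, 38964 and 44331 TPM in D3 (1.43 ± 0.09) and KRT14 5683, 6532 and 7289.7 TPM in the monolayers and 25618, 34568 and 39066 TPM in D3 (2.31 ± 0.08). As a share of all TPM, KRT5 went from 1.35 to 3.90% and KRT14 from 0.653 to 3.46% (medians). KRT6A, an activation keratin named here after its values were seen, went from 0.530 to 1.97%. Near-identical keratin genes can share reads, so the split among them is uncertain. The falls were in simple-epithelial and hair-type keratins: KRT18 had 254.4, 373.05 and 487.7 TPM in the monolayers and 47.9, 51.5 and 104.0 TPM in D3 (-2.44 ± 0.15), and KRT7 and KRT34 fell from low levels (-0.97 ± 0.10 and -1.34 ± 0.13). Among 15 S100 genes, 11 rose and 2 fell as deposited, and 13 rose and 1 fell after rescaling. S100A9, a subunit of calprotectin, had 8.4, 10.7 and 15.1 TPM in the monolayers and 177.7, 1051 and 1287 TPM in D3 (5.55 ± 0.36), and S100A3 fell (-1.25 ± 0.16). CDH1, the epithelial cadherin, changed by -0.36 ± 0.06 as deposited and 0.16 after rescaling.

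A small number of genes were listed above 0 in 1 group alone. Values of 0 in all 10 monolayers and at least 1 TPM in all 9 D3 libraries were listed for 14 genes, and the reverse for 8. A listed 0 may be a failed estimate, so no fold is given. Beside NOTCH3 and ZNF750, the first set held CDH16, a cadherin best known from kidney and thyroid (3.7, 20.4 and 24.6 TPM in D3), ALDH3B2, an aldehyde dehydrogenase (4.1, 19.6 and 31.6 TPM), and KRT1, a suprabasal keratin of epidermis (1.1, 45.5 and 62.3 TPM). In the second set, UNC119, a lipid-binding trafficking protein, had 6.3, 10.2 and 16.3 TPM in the monolayers, and PIGS, an enzyme subunit of GPI anchor attachment, had 5.7, 9.25 and 14.1 TPM. These 2 are direct neighbours on chromosome 17 (RefSeq, GRCh38.p14), UNC119 at 28546707 to 28552628 and PIGS at 28553387 to 28571524. IL7R, a cytokine receptor, had 1.8, 2.15 and 2.8 TPM in the monolayers and was listed at 0 in D3.

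**Figure D4:**
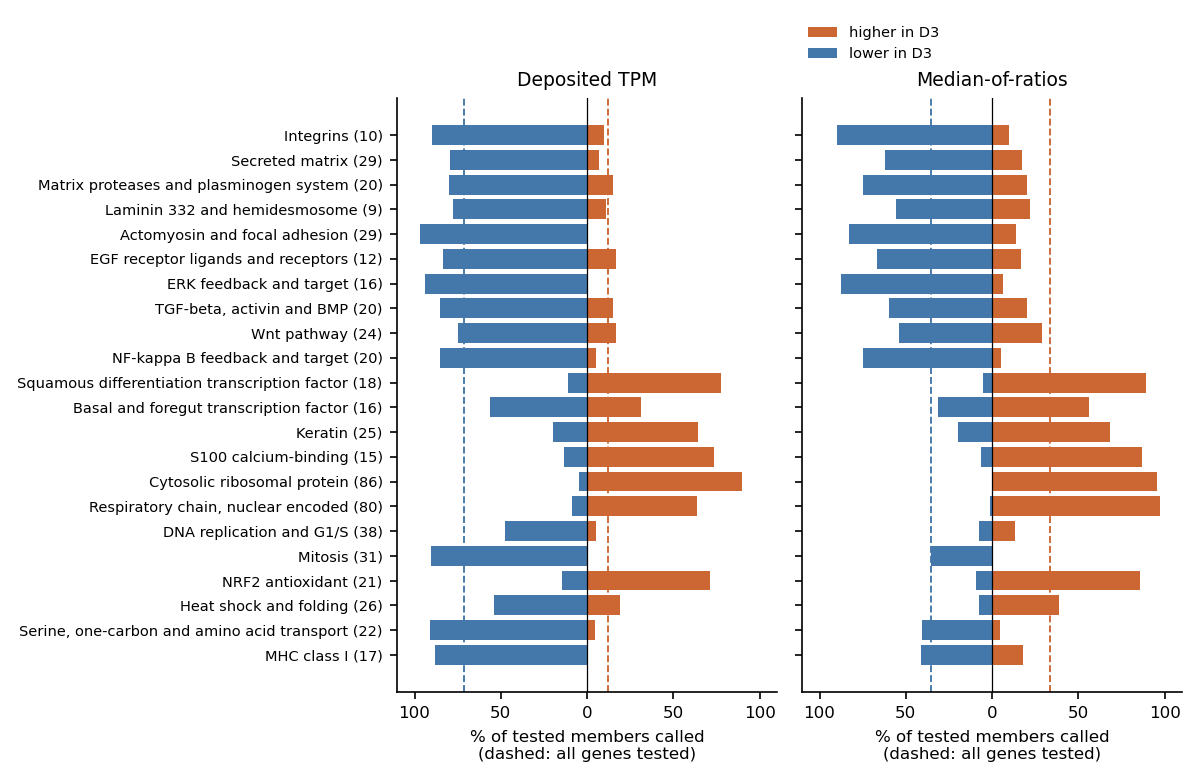
Share of the tested members of 22 gene lists (number in brackets) called higher (right) or lower (left) in D3, as deposited and after median-of-ratios rescaling. Dashed lines mark the same shares over all genes tested, 12.1 and 71.6% as deposited and 33.6 and 35.3% after rescaling.

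Genes of the cytosolic ribosome and of the nuclear-encoded respiratory chain mostly rose. Of 86 cytosolic ribosomal protein genes, 77 rose and 4 fell as deposited, with a median change of 0.54, and 82 rose after rescaling. RPL13A had 340.9, 396.3 and 442.3 TPM in the monolayers and 593.8, 813.1 and 920.5 TPM in D3 (0.93 ± 0.08, limma adjusted p = 1.8e-09), and the translation elongation factor EEF1A1 had 951.4, 1125 and 1233 TPM in the monolayers and 1364, 1782 and 2139 TPM in D3 (0.61 ± 0.07). EEF1A1 was not typical of its list: of 51 translation factors, 10 rose and 31 fell as deposited, and 28 rose and 10 fell after rescaling. Of 20 aminoacyl-tRNA synthetases, 18 fell as deposited, and 5 rose and 9 fell after rescaling. Of 26 ribosome biogenesis genes, 1 rose and 17 fell as deposited, and 10 rose and 2 fell after rescaling. Of 80 nuclear-encoded respiratory chain genes, 51 rose and 7 fell, and 78 rose and 1 fell after rescaling. COX7B, a cytochrome c oxidase subunit, rose from 11.7, 21.5 and 34.3 TPM to 35.7, 46.2 and 57.8 TPM (1.09 ± 0.14), and SDHA, of complex II, was the 1 that fell under both scalings (-0.73 ± 0.08). Mitochondrial ribosomal proteins, by contrast, rose in 5 and fell in 40 of 74 genes as deposited and rose in 61 and fell in 2 after rescaling. Among the 13 mitochondrially encoded genes, 3 rose and 5 fell as deposited, and 10 rose after rescaling. MT-CO3 rose by 0.36 ± 0.05 and MT-ND3 by 0.39 ± 0.06. Many genes of these lists have short transcripts, and length moved with the change: across 11495 genes with a GENCODE 29 transcript length (95.8% of those tested) Spearman's rank correlation was -0.157, as a description across genes that share libraries. With genes in 5 equal sets by length, the median change went from -0.35 in the shortest set to -0.56 in the longest, and from -0.39 to -0.56 without the ribosomal, respiratory chain and histone lists. The part of transcript length in these results was not tested.

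Counts of mitosis genes depended on the scaling, and those of DNA replication genes on the experiment. Of 31 mitosis genes, 28 fell as deposited and 11 after rescaling, against 71.6 and 35.3% of all genes tested, so the count after rescaling was near the share of all genes. MKI67, the Ki-67 antigen of cycling cells, had 118.1, 177.05 and 237.3 TPM in the monolayers and 48.7, 58.1 and 118.1 TPM in D3 (-1.23 ± 0.15, limma adjusted p = 2.7e-07), so the groups touched at D3 library 2. KIF23, a kinesin of cytokinesis, changed by -1.22 ± 0.11 and the kinase AURKB by -1.09 ± 0.11. Of 38 replication and G1/S genes, 18 fell and 2 rose in the pooled fit, but the batch interaction passed for all 38, against 44.9% of all genes tested (46.2% after rescaling). In batch 1, 35 were lower, with a median of -1.11, and in batch 2, 4 were lower and 15 higher, with a median of 0.24. Without D3 libraries 4 and 7 these medians were -0.97 and 0.13. Among inhibitors of cyclin-dependent kinases and D cyclins, 2 of 15 rose and 10 fell as deposited, and 5 rose and 2 fell after rescaling. Both counts as deposited were near the shares of all genes, 12.1% higher and 71.6% lower. After rescaling these shares were 33.6 and 35.3%. CDKN2B, an inhibitor of CDK4 and CDK6, rose from 18.7, 29.05 and 40.0 TPM to 32.2, 128.4 and 213.3 TPM (1.60 ± 0.29), and its target CDK6 fell from 13.1, 16.05 and 18.6 TPM to 6.0, 7.6 and 8.3 TPM (-1.05 ± 0.06). CDKN1C, another inhibitor, rose by 0.70 ± 0.16 in the pooled fit but did not pass in batch 2 alone (0.49, limma adjusted p = 0.0608). CCND1, cyclin D1, changed by -0.95 ± 0.12 with -1.46 in batch 1 and -0.50 in batch 2. CDKN1A, the p21 gene, fell as deposited (-0.70 ± 0.16) and did not pass after rescaling (-0.15).

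**Figure D5:**
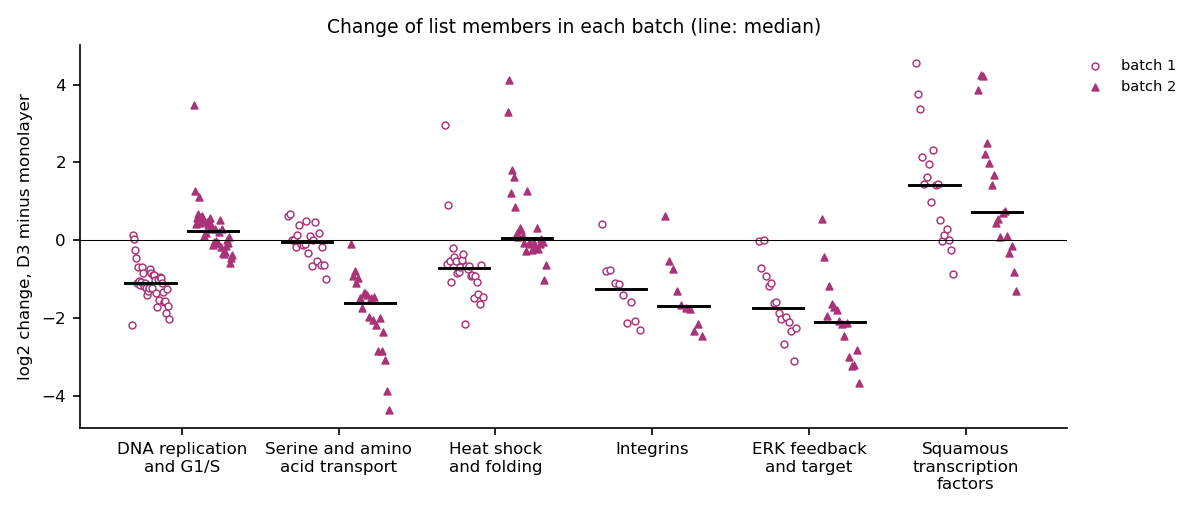
log2 change D3 minus monolayer (y axis) of each tested member of 6 gene lists in batch 1 and batch 2, with list medians as lines. Replication, amino acid and heat shock genes differ between batches, with medians of -1.11 and 0.24, -0.05 and -1.61, and -0.71 and 0.05, while integrin, ERK target and squamous transcription factor medians have the same sign in both.

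Antioxidant genes rose in the main. Of 21 NRF2 and antioxidant genes, 15 rose and 3 fell as deposited, and 18 rose and 2 fell after rescaling. The aldo-keto reductases led: AKR1B10, which reduces retinal and other carbonyls, had 0, 0.2 and 0.4 TPM in the monolayers and 13.9, 17.7 and 21.6 TPM in D3 (3.99 ± 0.08, limma adjusted p = 4.0e-18), with 3.96 in batch 1 and 4.00 in batch 2. AKR1C1 had 3.8, 5.45 and 7.6 TPM in the monolayers and 62.0, 72.7 and 111.6 TPM in D3 (3.58 ± 0.09) and AKR1C2 1.7, 2.55 and 3.2 TPM in the monolayers and 14.9, 15.9 and 21.3 TPM in D3 (2.40 ± 0.06), 2 similar genes that can share reads. In contrast, GCLM of glutathione synthesis (-1.86 ± 0.10) and the heme oxygenase gene HMOX1 (-1.50 ± 0.13) fell, both with separate groups. Metallothioneins, which bind zinc and copper, also went both ways: MT1X rose from 73.2, 91.4 and 111.0 TPM to 612.0, 855.6 and 1322 TPM (3.25 ± 0.13) and the more abundant MT2A fell from 3914, 6839 and 9207 TPM to 1418, 1909.8 and 2861 TPM (-1.56 ± 0.15).

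Retinoid genes changed in their binding proteins, enzymes and receptors. Of 10 tested, 4 rose and 4 fell as deposited, and 7 rose and 3 fell after rescaling. CRABP2, which carries retinoic acid to its nuclear receptor, had 1.5, 2.0 and 3.5 TPM in the monolayers and 44.3, 223.0 and 264.4 TPM in D3 (5.28 ± 0.32, limma adjusted p = 1.5e-11). The receptor RARG rose from 15.3, 19.75 and 24.9 TPM to 51.6, 62.4 and 71.6 TPM (1.58 ± 0.07), and RARA fell from 8.0, 8.5 and 9.2 TPM to 2.5, 3.2 and 4.1 TPM (-1.19 ± 0.06). ALDH1A3, which makes retinoic acid, had 163.9, 252.95 and 325.9 TPM in the monolayers and 15.2, 17.6 and 37.2 TPM in D3 (-3.39 ± 0.21), and DHRS9, a retinol dehydrogenase, was listed at 0 in all monolayers with 1.4, 2.2 and 3.0 TPM in D3. CRABP2 was lower in D3 libraries 2, 7, 8 and 9 (44.3 to 90.6 TPM) than in the other 5 (223 to 264 TPM).

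Among lipid genes stood the largest fall of all 11998 genes, that of G0S2, an inhibitor of triglyceride lipolysis, from 1579, 2922 and 4165 TPM to 9.9, 17.0 and 21.7 TPM (-7.45 ± 0.14). Among 14 genes of lipolysis and lipid droplets, 4 rose and 7 fell as deposited, and 7 rose and 4 fell after rescaling. FABP5, the epidermal fatty acid binding protein, had 17.2, 37.15 and 71.5 TPM in the monolayers and 111.7, 508.8 and 649.3 TPM in D3 (3.21 ± 0.41), with 1.87 in batch 1 and 4.40 in batch 2. HILPDA, a lipid droplet protein, rose by 1.37 ± 0.19 and ACSL1, which activates fatty acids, by 1.63 ± 0.16. Of 22 ceramide and barrier lipid genes, 7 rose and 13 fell as deposited, and 10 rose and 6 fell after rescaling. ALOX12B, a lipoxygenase of the skin barrier, rose from 0, 0.35 and 1.0 TPM to 0.7, 8.3 and 12.8 TPM (1.96 ± 0.35) and SGPP2, a sphingosine phosphate phosphatase, by 1.23 ± 0.21. UGCG, which makes glucosylceramide, had 18.2, 21.5 and 24.4 TPM in the monolayers and 4.9, 5.6 and 7.5 TPM in D3 (-1.72 ± 0.06), and SMPD1, acid sphingomyelinase, changed by -1.66 ± 0.07.

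Chaperones and amino acid genes depended on the batch. Of 26 heat shock and folding genes, 5 rose and 14 fell as deposited, 10 rose and 2 fell after rescaling, and 22 had a batch interaction. The interaction passed for 44.9% of all genes tested. HSPB1, the small heat shock protein HSP27, which squamous cells make as they differentiate, went from 0.112 to 1.15% of all TPM (medians), with 958.9, 1124 and 1462 TPM in the monolayers and 5104, 11506 and 17327 TPM in D3 (3.14 ± 0.21, limma adjusted p = 7.9e-11). HSPA4L rose by 1.07 ± 0.08. The constitutive chaperone HSPA8 did not pass (-0.34 ± 0.42), and its change was -2.16 in batch 1 and 1.27 in batch 2: its monolayers held 2847 to 3003 TPM in batch 1 and 257 to 282 TPM in batch 2, and all D3 libraries lay between, at 422 to 908 TPM. Of 22 genes of serine, one-carbon and amino acid supply, 20 fell and 1 rose as deposited, and 9 fell and 1 rose after rescaling, all 22 with an interaction. In batch 1 alone 4 were higher and 4 lower, and in batch 2 alone 21 were lower. The list medians in batch 1 and batch 2 were -0.05 and -1.61 for these genes (-0.16 and -1.70 without D3 libraries 4 and 7) and -0.71 and 0.05 for the heat shock genes (-0.74 and -0.04). The stress-induced genes STC2, TRIB3 and SESN2 changed by -2.77 ± 0.54, -2.36 ± 0.47 and -1.71 ± 0.45 in the pooled fit and did not pass in batch 1 alone (-0.99, -0.65 and -0.18). There D3 library 4 held 51.9, 43.7 and 31.4 TPM, above all batch 1 monolayers (at most 33.0, 29.5 and 11.1 TPM). D3 libraries 2, 8 and 9 lay below all batch 1 monolayers, at 7.2 to 11.0, 8.5 to 16.1 and 5.4 to 6.0 TPM. In batch 2, D3 library 5 stood apart likewise, at 69.8, 54.1 and 34.6 TPM. It lay below all batch 2 monolayers (at least 249.6, 214.2 and 79.2 TPM). The other batch 2 D3 libraries held 5.7 to 11.2, 7.9 to 17.2 and 5.6 to 6.9 TPM. STC2 monolayers held 27.3 to 33.0 TPM in batch 1 and 249.6 to 273.7 TPM in batch 2. Of 17 genes of MHC class I presentation, 15 fell as deposited, against 71.6% of all genes tested. After rescaling 7 fell and 3 rose, near the 35.3% of all genes that fell. The peptide-loading chaperone CALR, calreticulin, had 1814, 1947 and 2119.9 TPM in the monolayers and 496.6, 530.4 and 676.4 TPM in D3 (-1.78 ± 0.07), and the partner PDIA3 changed by -1.17 ± 0.09. Of 27 lysosome genes, 19 fell and 3 rose as deposited, near the 71.6% of all genes that fell, and 11 fell and 9 rose after rescaling. NPC1, the cholesterol exporter, fell (-1.62 ± 0.11), and CTSV, a cathepsin of stratified epithelium, rose (1.00 ± 0.15).

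The difference between the batches was tested gene by gene. The interaction passed for 5384 genes as deposited, 2987 of them with a higher change in batch 2, and 380 genes (3.17%) were called in opposite directions in the 2 batches. Without D3 libraries 4 and 7 it passed for 5885. In several of the largest interactions the monolayers differed between the experiments and the D3 libraries lay in between. FEN1, a replication nuclease, had 116 to 145 TPM in the monolayers of batch 1 and 0.3 to 1.9 TPM in those of batch 2, against 9 to 49.2 TPM over all D3 libraries. RBM12, an RNA-binding protein, had 45.2 to 56.2 TPM in batch 1 monolayers, was listed at 0 in all 5 of batch 2, and had 19.4 to 36.6 TPM in D3. EGR1, an immediate early factor, had 52.0 to 73.7 TPM and 1388 to 1514 TPM in the monolayers of the 2 batches and 223 to 533 TPM in D3. In each of these 3 genes the change had opposite signs in the 2 batches, so the pooled change describes neither.

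The labelled cell type was checked against its markers, and other cell types were looked for. Of 17 columnar, goblet and ciliated markers 2 passed the filter, of 10 fibroblast markers 1, and of the 14 immune and endothelial markers listed 3 (12 were in the table). The 2 columnar markers were SPDEF, at 0 to 11 TPM over the 19 libraries, and AGR2, at 0.2 to 1.1 TPM. Of these, 1 rose and 1 fell under both scalings. The summed level of the fibroblast list was 0.00035 to 0.00097% of TPM in the monolayers and 0.00082 to 0.00307% in D3, from COL1A1, and that of the immune and endothelial list 0.0196 to 0.0285% and 0.0222 to 0.0267%. The latter came from CD68, CSF1R and CD14, while PTPRC of leukocytes and PECAM1, VWF and CDH5 of endothelium were listed at 0 in all 19 libraries, as were COL1A2, COL3A1 and PDGFRA of fibroblasts and MUC2, MUC5AC and TFF1 of columnar epithelium. Among the 3, CD14, a receptor for bacterial lipopolysaccharide best known from monocytes, had 0.3, 2.05 and 5.1 TPM in the monolayers and 23.3, 30.4 and 39.3 TPM in D3 (3.45 ± 0.22, limma adjusted p = 2.6e-11), with no overlap. Of 12 tested epithelial identity markers, 8 rose and 3 fell as deposited, and 11 rose and 1 fell after rescaling. The other 2 on that list, EPCAM and LGALS7, did not exceed 0.4 TPM in any library. The part of other cell types in the results was not tested.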

How the data were processed

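RNA-seq of total RNA was available as 1 table of TPM values by gene symbol, deposited by the authors. Per the submitters' processing notes, the genome build named is hg38. Which aligner, quantifier, gene models and strand setting were used is not given in the sources used here. Because values in TPM fix each library's total, a rise of abundant transcripts lowers all others, and sequencing depth is unknown. Libraries were matched to groups and batches through their labels. Genes that reached 1 TPM in 4 or more of the 19 libraries were kept, a pseudocount of 1 was added, and log2 values were fitted in limma 3.58.1 (R 4.3.3) on group and batch with an intensity trend and Benjamini-Hochberg adjustment at 0.05. A second fit used values divided by median-of-ratios factors from 12333 genes above 0 in all 19 libraries. The batch interaction was fitted as a further term. Class shares were compared by exact permutation of libraries (scipy 1.17.1). The procedures were tested on simulated data. Same-numbered libraries share only a number and were not paired.

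The members and the 45 gene lists were chosen with earlier results of these data known. Genes named are taken from: the 16 largest rises and falls with 1 direction under both scalings and in each batch; up to 3 rises and 3 falls per list called under both scalings; up to 8 genes listed at 0 in 1 group; the 5 largest interactions of each sign; up to 2 members per list called in opposite directions by the 2 scalings; and 14 reference genes. CXCL2, CXCL3 and KRT6A were added after their values were seen. Some items that the rule takes are not reported here. Promoters of 9388 tested genes were matched by symbol in RefSeq (GRCh38.p14).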

Additional observations from a re-analysis of the deposited data

Results flagged for a closer look

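Of 296 sets of values looked at (each named gene or class share in 1 group), 7 held a library far from the others. In the monolayers these were CXCL14 in library 4 (0.2 TPM), IGFBP2 in library 4 (0.1 TPM), PPP1R12B in library 9 (1.7 TPM, the lowest), SPRR3 in library 9 (0.7 TPM), SPRR1A in library 5 (5.3 TPM) and HSPB1 in library 6 (1462 TPM). In D3 it was UGCG in library 5 (7.5 TPM). Most of these lie close to 0 TPM, where the table gives 1 decimal.

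The change between monolayer and D3 differed between the batches for 5384 genes by the interaction term in limma. The largest differences, batch 2 minus batch 1 in log2 units, were 5.65 for FEN1, 5.62 for RBM12, 4.73 for HSPE1, 4.00 for GPX2 and 3.43 for HSPA8 on one side. On the other side they were -5.94 for IFITM1, -5.57 for TMEM129, -4.53 for ADM2, -4.32 for VASN and -4.25 for EGR1. In each of these 10 genes the monolayers of the 2 experiments did not overlap. HSPE1, a mitochondrial co-chaperone, had 23.3 to 38.3 TPM in batch 1 monolayers and was listed at 0 in batch 2 monolayers, and GPX2, a glutathione peroxidase, had 19.7 to 28.9 and 0 to 0.4 TPM. TMEM129 was listed at 0 in all batch 1 monolayers, with 47.2 to 59.0 TPM in batch 2 and 33.0 to 64.0 TPM in D3. Smaller interactions with changes of opposite sign passed for SFRP1 (1.19), GAPDH (0.88), TP63 (-0.51) and RHOA (0.43). The cause was not tested.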

How the results depend on the processing

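Scaling was the choice that moved the counts. As deposited, 1454 genes were higher and 8591 lower, against 4032 and 4240 after median-of-ratios rescaling and 3746 and 4544 after quantile normalization. Other alternatives kept both counts within 1.5 times. Leaving out 1 library at a time gave 1386 to 1521 higher and 8424 to 8662 lower as deposited. Of 150 single-gene results, 132 kept direction and side of the threshold under every alternative run, and 149 with each library left out.

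Signs turned as follows (log2 units). After rescaling: MYL12B 0.26, TAGLN2 0.28, RHOA 0.35, TP63 0.30, CDH1 0.16 and HSPA8 0.21. After quantile normalization: RHOA 0.19, TP63 0.24, CDH1 0.099, MT-ND3 -0.072 and GAPDH -0.068. In batch 1 alone: SFRP1 -0.0021, TP63 0.047, HSPE1 -0.61 and GAPDH -0.14. In batch 2 alone: RHOA 0.011 and HSPA8 1.27. The mitochondrially encoded share differed by -4.29 percentage points in batch 2 alone and by -1.02 to 1.23 with 1 library left out. The cause was not tested.

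With the label number as a replicate block beside batch, 1471 genes were higher and 8653 lower, and no named call changed. The numbers gave no clear pairing of the libraries: deviations from group means correlated at -0.441 to 0.36 over 9 same-numbered pairs, and 1 library correlated best with its own number. Deviations from the means of group and batch correlated at 0.00859 to 0.116, and 2 libraries correlated best with their own number. TPM carry no depth, so low values have no counting error here.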
